A study of Mus musculus with 10 samples.

Results

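The 8 genes described here, Tac2, Shox2, Grid2ip, Tcf7l2, Lef1, Prkcd, Gpr151 and Slc17a6, are known as genes of the thalamus and the habenula, and they were followed in arrays made from the hippocampus. They were chosen by name, with earlier results of these data known. Each had 1 transcript cluster (the set of probes that measures a gene on these arrays). They are 8 of the 19938 genes that the arrays measured by a transcript cluster with a single symbol. The animals were 5 Tg(Dyrk1a) mice, which hold an extra Dyrk1a copy on a bacterial artificial chromosome (Dyrk1a encodes a dual-specificity kinase), and 5 wild-type (WT) littermates. All were males aged 16 weeks, and each mouse gave 1 array from its right and left hippocampus together. The labels give their background as C57BL/6N, while the methods of the study name C57BL/6J for the line. The labels call the mice of a group biological replicates. The study asked which hippocampal transcripts change when Dyrk1a is in excess, and the question here was whether these 8 genes differ between the genotypes and whether they vary together from mouse to mouse.

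The thalamus lies beneath the hippocampus and relays sensory and motor signals to the cortex through glutamate neurons that load their vesicles with the transporter encoded by Slc17a6. The habenula is a small nucleus on its dorsal edge, whose medial division uses acetylcholine, glutamate and tachykinin peptides and projects to the interpeduncular nucleus. The principal cells of the hippocampus, the pyramidal cells of the CA fields and the granule cells of the dentate gyrus, use mainly a related transporter, encoded by Slc17a7. In a whole-tissue sample fewer cells of a type and less RNA per cell cannot be told apart.

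All values are log2 array values. The targeted gene followed the labels, with Dyrk1a between 11.62 and 11.68 in Tg(Dyrk1a) and between 11.14 and 11.28 in WT mice, a log2 fold change of 0.47 ± 0.03 (SE) at a limma adjusted p of 0.000138. The medians of the arrays lay between 6.57 and 6.66, and r between arrays, over all rows of the table, was 0.994 to 0.998. The mean level of 11 dentate granule cell markers was 9.02 to 9.33 in Tg(Dyrk1a) and 8.94 to 9.14 in WT mice, and that of 13 CA pyramidal cell markers was 9.36 to 9.53 in Tg(Dyrk1a) and 9.36 to 9.45 in WT mice. The array of WT replicate 5 stood apart for the thalamus genes, so the log2 fold change of each of the 8 genes is given with it and without it.

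None of the 8 genes passed limma at an adjusted p under 0.05, a threshold that 0.00854% of the 23410 annotated transcript clusters passed. An unadjusted limma p under 0.05 was reached by 3 of the 8, against 4.93% of all transcript clusters. Tac2 was higher in Tg(Dyrk1a) mice, as were 2.99% of all at that threshold, and Shox2 and Grid2ip were lower, as were 1.94% of all. The genotypes did not overlap for 2 of the 8, against 0.807% of all transcript clusters in either direction, and Tac2 lay with the 0.534% whose Tg(Dyrk1a) values were all above WT. FCROS, the rank method of the study, was rewritten here from its description and has no error over mice. Its cut at fixed tails largely sets how many transcript clusters are called in any comparison. It called Tac2 as higher and Shox2, Grid2ip and Tcf7l2 as lower, 4 of the 8, against 4.83% of all transcript clusters. The log2 fold change was below 0 for 6 of the 8 genes, against 48.3% of all genes, with a median of -0.12 against 0.002 over all genes. Without WT replicate 5, 5 of the 8 genes were below 0, the median was -0.03, and the same 3 genes had an unadjusted limma p under 0.05, where 6.93% of all transcript clusters did.

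**Figure D1:**
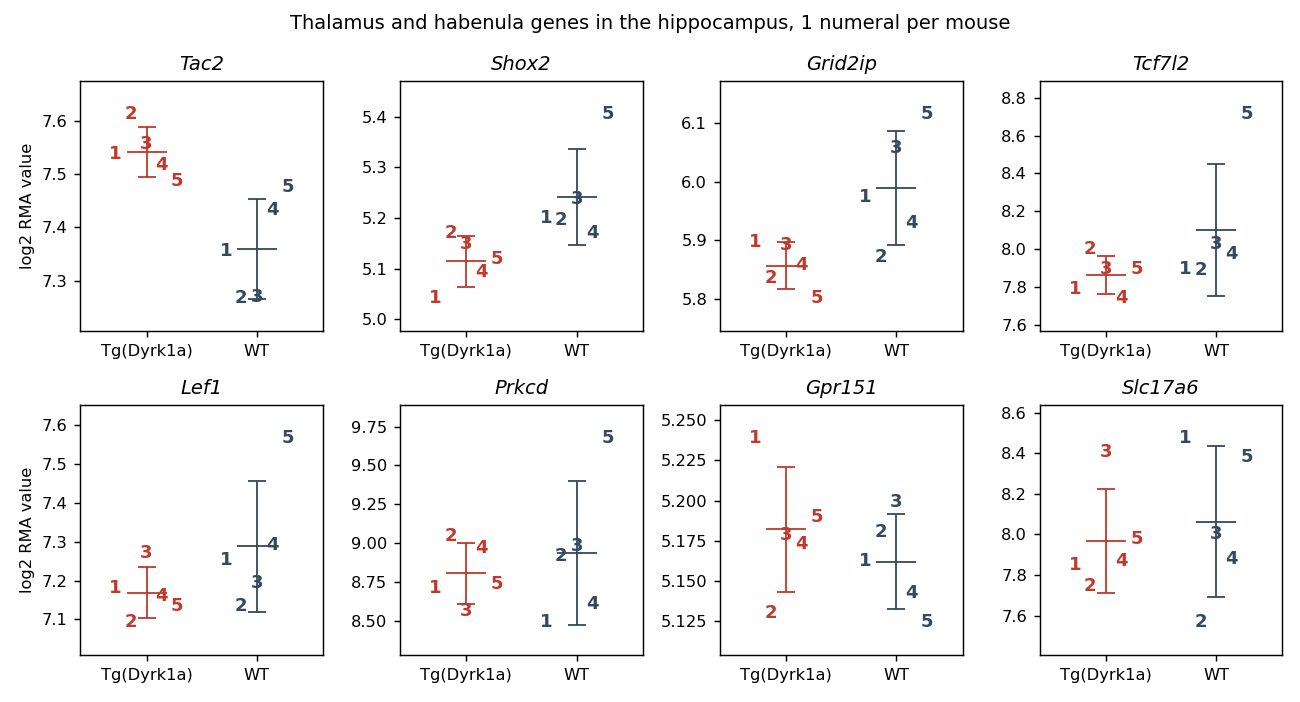
Log2 value of each of the 8 genes (vertical axes, which differ in range) in 5 Tg(Dyrk1a) mice (left) and 5 WT mice (right). Each numeral is the replicate number of a mouse, and the bars are the mean and 1 SD. Tac2 is higher in every Tg(Dyrk1a) mouse than in any WT mouse, and WT replicate 5 is the highest mouse for Shox2, Grid2ip, Tcf7l2, Lef1 and Prkcd.

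Tac2, which encodes the precursor of the tachykinin neurokinin B and marks neurons of the medial habenula as well as groups of neurons in the hypothalamus and amygdala, was the gene with the smallest p of the 8. Its gene lies on chromosome 10 at 127724478 to 127731768 (GRCm38.p6), and it was measured by transcript cluster 10367024. The level was 7.54, 7.61, 7.56, 7.52 and 7.49 in Tg(Dyrk1a) replicates 1 to 5, against 7.36, 7.27, 7.27, 7.43 and 7.48 in WT replicates 1 to 5. Every Tg(Dyrk1a) mouse was above every WT mouse, although Tg(Dyrk1a) replicate 5 and WT replicate 5 lay close to each other. The mean was 7.54 ± 0.05 in Tg(Dyrk1a) and 7.36 ± 0.09 in WT mice (SD, n = 5 each), a log2 fold change of 0.18 ± 0.05 (SE, 95% interval 0.08 to 0.28), or 1.13-fold. The limma p was 0.00156 and adjusted to 0.947, while the two-sided exact permutation test gave p = 0.00794, the smallest that 5 against 5 mice allow. With WT replicate 5 left out, the log2 fold change of Tac2 was 0.21 ± 0.04 (SE) at a limma adjusted p of 0.714.

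Shox2, a homeodomain transcription factor of thalamic neurons, was the other gene without overlap (chromosome 3, 66971723 to 66981771, transcript cluster 10498568). It stood at 5.04, 5.17, 5.15, 5.09 and 5.12 in Tg(Dyrk1a) replicates 1 to 5, against 5.20, 5.20, 5.24, 5.17 and 5.41 in WT replicates 1 to 5. All Tg(Dyrk1a) mice were below all WT mice, by a margin that vanishes on rounding between Tg(Dyrk1a) replicate 2 and WT replicate 4. Shox2 was dim, at a mean of 5.18 against array medians of 6.57 to 6.66, and lay with Grid2ip and Gpr151 in the dimmest 30% of transcript clusters. The means were 5.11 ± 0.05 in Tg(Dyrk1a) and 5.24 ± 0.09 in WT mice (SD, n = 5 each), and the log2 fold change was -0.13 ± 0.05 (SE, 95% interval -0.23 to -0.03), with a limma p of 0.0162, adjusted to 0.947, and p = 0.00794 in the two-sided exact permutation test. When WT replicate 5, the highest mouse, was left out, it was -0.09 ± 0.04 (SE) at a limma adjusted p of 0.715.

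Grid2ip encodes delphilin, a scaffold protein known from synapses of cerebellar Purkinje cells (chromosome 5, 143357330 to 143391779, transcript cluster 10527186). Its values were 5.90, 5.84, 5.89, 5.86 and 5.80 in Tg(Dyrk1a) replicates 1 to 5, against 5.97, 5.87, 6.06, 5.93 and 6.12 in WT replicates 1 to 5. WT replicates 5 and 3 were the highest mice, and the groups overlapped through WT replicate 2. Grid2ip had a log2 fold change of -0.13 ± 0.05 (SE, 95% interval -0.23 to -0.035), with a limma p of 0.0119, adjusted to 0.947, and an exact permutation p of 0.0238. It was -0.10 ± 0.04 (SE) without WT replicate 5, at a limma adjusted p of 0.715.

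Tcf7l2 and Lef1 are HMG-box transcription factors that act with beta-catenin at the end of the Wnt pathway, and both are used by postmitotic neurons of the thalamus. Tcf7l2 (chromosome 19, 55741797 to 55933659, transcript cluster 10464084) stood at 7.79, 7.999, 7.90, 7.74 and 7.89 in Tg(Dyrk1a) replicates 1 to 5, against 7.90, 7.89, 8.03, 7.97 and 8.71 in WT replicates 1 to 5. WT replicate 5 was 0.68 above the next mouse and 1.76-fold above the mean of the other 9, and the remaining WT mice lay within or just above the range of the Tg(Dyrk1a) mice. The log2 fold change was -0.24 ± 0.13 (SE, 95% interval -0.52 to 0.05) with all mice, at a limma adjusted p of 0.947 and an exact permutation p of 0.127, and -0.08 ± 0.05 (SE) without WT replicate 5, at a limma adjusted p of 0.764.

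Lef1 (chromosome 3, 131110297 to 131224357, transcript cluster 10496091) was at 7.18, 7.09, 7.27, 7.16 and 7.14 in Tg(Dyrk1a) replicates 1 to 5, against 7.25, 7.13, 7.19, 7.29 and 7.57 in WT replicates 1 to 5. WT replicate 5 was again the highest mouse, 1.30-fold above the mean of the other 9, and the groups overlapped. For Lef1 the log2 fold change was -0.12 ± 0.07 (SE, 95% interval -0.27 to 0.03), at a limma adjusted p of 0.947 and an exact permutation p of 0.159, and -0.05 ± 0.04 (SE) without WT replicate 5, at a limma adjusted p of 0.831.

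Prkcd encodes protein kinase C delta, an isoform abundant in relay neurons of the thalamus (chromosome 14, 30595353 to 30626414, transcript cluster 10418410). Its level was 8.71, 9.04, 8.56, 8.97 and 8.73 in Tg(Dyrk1a) replicates 1 to 5, against 8.49, 8.91, 8.98, 8.61 and 9.68 in WT replicates 1 to 5. WT replicate 5 was 0.63 above the next mouse and 1.86-fold above the mean of the other 9, while WT replicate 1 was the lowest of all. The log2 fold change of -0.13 ± 0.18 (SE, 95% interval -0.52 to 0.26) had a limma adjusted p of 0.971 and an exact permutation p of 0.651. It turned to 0.06 ± 0.12 (SE) without WT replicate 5, at a limma adjusted p of 0.936.

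Gpr151, an orphan receptor found on axons of habenular neurons, is on chromosome 18 (42577881 to 42579652, transcript cluster 10458641). It lay at 5.24, 5.13, 5.18, 5.17 and 5.19 in Tg(Dyrk1a) replicates 1 to 5, against 5.16, 5.18, 5.20, 5.14 and 5.12 in WT replicates 1 to 5. The groups overlapped, and here WT replicate 5 was the lowest of the 10 mice. Its log2 fold change was 0.02 ± 0.03 (SE, 95% interval -0.05 to 0.09), at a limma adjusted p of 0.973 and an exact permutation p of 0.413. It was 0.01 ± 0.03 (SE) without WT replicate 5, at a limma adjusted p of 0.957.

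Slc17a6 encodes the vesicular glutamate transporter VGLUT2 (chromosome 7, 51621830 to 51671126, transcript cluster 10553501). Its values of 7.85, 7.75, 8.40, 7.87 and 7.98 in Tg(Dyrk1a) replicates 1 to 5 stood against 8.48, 7.57, 8.003, 7.88 and 8.38 in WT replicates 1 to 5. WT replicate 1 was the highest mouse and WT replicate 2 the lowest, Tg(Dyrk1a) replicate 3 and WT replicate 5 were also high, and the groups overlapped. For Slc17a6 the log2 fold change was -0.09 ± 0.16 (SE, 95% interval -0.45 to 0.26), at a limma adjusted p of 0.976 and an exact permutation p of 0.667. It was 0.01 without WT replicate 1 and -0.01 without WT replicate 5.

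**Figure D2:**
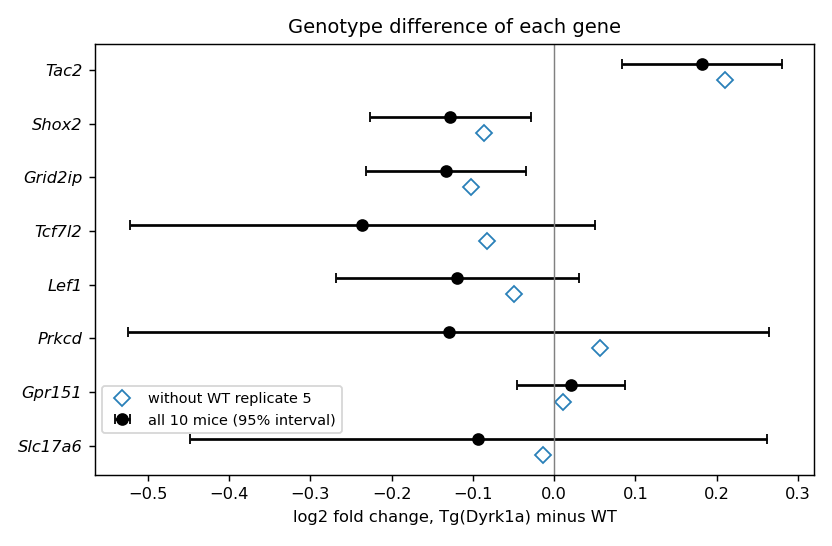
Log2 fold change of each gene, Tg(Dyrk1a) minus WT (horizontal axis), from limma over all 10 mice (filled circles, bars are 95% intervals) and without WT replicate 5 (open diamonds). Tac2 is above 0 and Shox2 and Grid2ip below 0 in both, Tcf7l2 lies at -0.24 with all mice and at -0.08 without that mouse, and Prkcd changes sign.

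Relatives and binding partners of these genes gave no call either. Of 21 relatives and partners listed, 18 were measured, none passed limma at an adjusted p under 0.05, and an unadjusted p under 0.05 was reached by 3, against 4.93% of all transcript clusters. Of these, Slc17a8 and Tac1 were higher and Tacr2, a tachykinin receptor gene, was lower in Tg(Dyrk1a) mice. Slc17a8, which encodes the vesicular glutamate transporter VGLUT3, stood at 6.72 to 6.81 in Tg(Dyrk1a) and at 6.50 to 6.65 in WT mice, without overlap, a log2 fold change of 0.20 ± 0.03 (SE) with a limma p of 7.12e-05, adjusted to 0.254. Slc17a7, the main vesicular glutamate transporter gene of hippocampal pyramidal and granule cells, had a log2 fold change of -0.0046 ± 0.04 (SE), and Tcf7l1, a relative of Tcf7l2, had 0.02 ± 0.05 (SE). Tcf7 was not analysed here. WT replicate 5 was the highest mouse for 1 of the 18, the protein kinase C gene Prkch, where it stood 0.39 above the mean of the other 9.

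The start regions of Tac2, Tcf7l2 and Shox2 are printed because Tac2 was the gene higher in Tg(Dyrk1a) mice at the unadjusted threshold and because Shox2 and Tcf7l2 were the pair that varied together most closely. RefSeq windows of GRCm38.p6, each running from 250 bases before to 50 bases after an annotated start, were given for 7 of the 8 genes, 14 windows in all. They were searched on both strands for CTTTGAT and CTTTGAA, the core that TCF and LEF proteins bind, and for TAATTA, a core bound by homeodomain proteins. CTTTGAT and CTTTGAA differ in their last letter alone. The windows are Tac2 at chr10:127724228-127724527 on the plus strand, Tcf7l2 at chr19:55741560-55741859 on the plus strand and Shox2 at chr3:66981722-66982021 on the minus strand, and capitals mark a match.
Tac2: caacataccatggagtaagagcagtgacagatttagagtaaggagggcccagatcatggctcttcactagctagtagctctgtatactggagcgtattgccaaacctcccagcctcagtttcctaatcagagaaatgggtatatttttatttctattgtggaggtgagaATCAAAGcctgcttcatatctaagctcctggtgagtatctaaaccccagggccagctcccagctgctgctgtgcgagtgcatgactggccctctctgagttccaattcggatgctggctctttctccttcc
Tcf7l2: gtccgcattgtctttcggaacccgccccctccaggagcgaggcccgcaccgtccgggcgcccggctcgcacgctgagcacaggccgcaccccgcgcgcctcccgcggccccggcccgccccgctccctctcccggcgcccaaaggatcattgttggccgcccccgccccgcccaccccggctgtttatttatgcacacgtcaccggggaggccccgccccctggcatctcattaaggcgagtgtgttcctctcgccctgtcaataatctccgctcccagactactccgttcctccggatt
Shox2: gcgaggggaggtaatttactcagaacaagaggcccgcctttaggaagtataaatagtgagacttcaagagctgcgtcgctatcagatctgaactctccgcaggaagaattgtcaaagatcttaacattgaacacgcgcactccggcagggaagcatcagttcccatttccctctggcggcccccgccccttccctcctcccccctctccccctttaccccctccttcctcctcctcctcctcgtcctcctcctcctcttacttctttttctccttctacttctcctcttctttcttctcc

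The Tac2 window held CTTTGAT on the opposite strand, read as ATCAAAG on the strand printed, 81 bases before the start. A match to CTTTGAT occurs in 3.73% of the 32851 windows of all genes, to CTTTGAA in 5.14% and to TAATTA in 5.29%. The other match among the 14 windows was TAATTA in 1 of 2 windows of Slc17a6. A match is a run of letters and was not tested for binding. The window of Tcf7l2 was 70.0% G and C with 34 CG pairs, that of Shox2 53.3% with 11 CG pairs and that of Tac2 48.3% with 3 CG pairs.

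Variation from mouse to mouse was then compared between the 8 genes. Of the 28 pairs, 1 passed after adjustment over the 28 pairs, Shox2 with Tcf7l2, at Pearson's r = 0.92 over 10 mice (permutation test p = 0.00089, adjusted p = 0.0249) and Spearman's rho = 0.75 (permutation p = 0.0173, adjusted p = 0.214). Without the mice farthest from the median of Shox2, WT replicate 5 and Tg(Dyrk1a) replicate 1, r was 0.74, and with each genotype centred on its own mean it was 0.93. Without WT replicate 5 alone it was 0.78 over 9 mice (permutation p = 0.0126, adjusted p = 0.216), and none of the 28 pairs passed.

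Across all 28 pairs the median r was 0.24, with a range of -0.63 to 0.92, and 16 pairs were above 0. With each genotype centred on its own mean the median was 0.51. Without WT replicate 5 the median was 0.0063, with a range of -0.79 to 0.78. The pairs of the Wnt-pathway factors and the kinase rested on that mouse. Tcf7l2 and Lef1 had r = 0.85 with it (permutation p = 0.0422, adjusted p = 0.132, and rho = 0.45, permutation p = 0.192) and r = 0.08 without it, or -0.03 without it and Tg(Dyrk1a) replicate 4. Tcf7l2 and Prkcd had r = 0.81 with it (permutation p = 0.0368, adjusted p = 0.132, and rho = 0.39, permutation p = 0.263) and r = 0.12 without it, or 0.48 without the same pair of mice.

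Other pairs behaved differently. Lef1 and Prkcd had r = 0.52 over 10 mice (permutation p = 0.121, adjusted p = 0.261, and rho = -0.25, permutation p = 0.491). Their r was -0.79 without WT replicate 5 (permutation p = 0.0154, adjusted p = 0.216) and -0.78 without WT replicates 4 and 5. Lef1 and Slc17a6 had r = 0.65 over 10 mice (permutation p = 0.0273, adjusted p = 0.132, and rho = 0.72, permutation p = 0.0238). This pair did not pass, but it did not rest on WT replicate 5, without which r was 0.66, or 0.88 without WT replicates 4 and 5. None of the pairs of the habenula markers Tac2 and Gpr151 passed. Tac2 had an r between -0.41 and 0.07 with the other 7 genes over all mice. With each genotype centred on its own mean, its r was 0.52 with Shox2, 0.38 with Grid2ip, 0.66 with Tcf7l2, 0.71 with Lef1, 0.35 with Prkcd, 0.35 with Slc17a6 and -0.73 with Gpr151, so that the values over all mice held the genotype difference of Tac2. Gpr151 had an r below 0 with each of the other 7 genes, from -0.63 to -0.16 over all mice and from -0.73 to -0.02 after centring. Without WT replicate 5 its r ran from -0.46 with Shox2 to 0.15 with Grid2ip. Gpr151 was dim, at a mean of 5.17, and its values spanned only 0.11 over the 10 mice (SD 0.03), so its r rests on small differences.

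**Figure D3:**
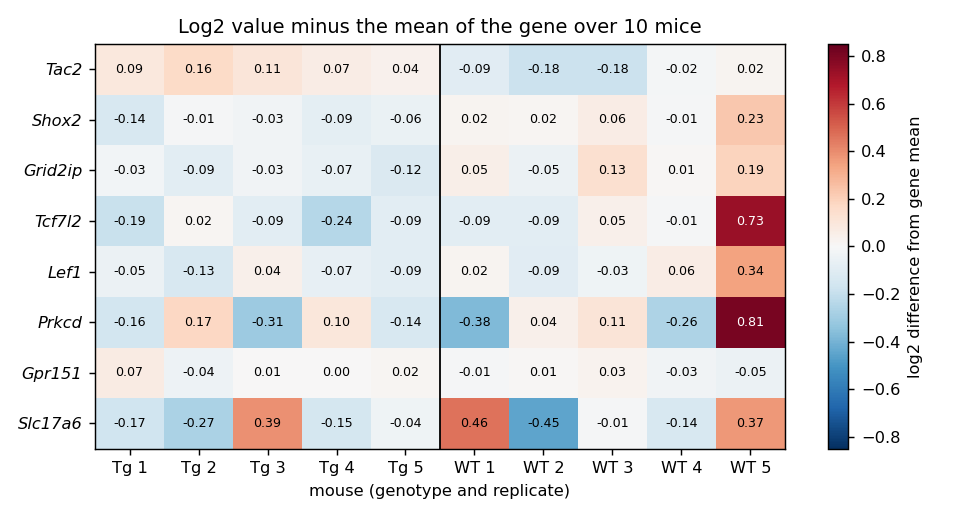
Each cell is the log2 value of a gene (rows) in a mouse (columns, Tg(Dyrk1a) left of WT) minus the mean of the gene over the 10 mice, from blue for lower to red for higher. WT replicate 5 is 0.73 above the mean for Tcf7l2 and 0.81 for Prkcd, while Gpr151 is 0.05 lower. Tac2 is 0.02 above the mean of all 10 mice, which lie apart by genotype, and 0.14 above the mean of the other 4 WT mice.

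WT replicate 5 was the highest of the 10 mice for 5 of the 8 genes, where it was the highest for 6.23% of the 19938 genes, fewer than any other array. It was over 0.3 above the mean of the other 9 mice for 4 of the 8 genes, Tcf7l2, Lef1, Prkcd and Slc17a6, against 0.687% of all genes. The 8 genes were chosen with earlier results of these data known, so these shares only describe the set. The score of the 8 genes, the mean over genes of the log2 value minus the mean of the gene over the 10 mice, was -0.07, -0.02, 0.01, -0.06 and -0.06 in Tg(Dyrk1a) replicates 1 to 5, against -0.0015, -0.10, 0.02, -0.05 and 0.33 in WT replicates 1 to 5. The other 9 mice thus lay between -0.10 and 0.02, and WT replicate 5 lay outside that range.

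The same mouse was high across the wider set of thalamus genes. Of 23 further thalamus genes listed, 22 were measured, and WT replicate 5 was the highest mouse for 17 of them and over 0.3 above the mean of the other 9 for 12. The shares over all genes were 6.23% and 0.687%. This list too was chosen with earlier results of these data known, so the counts only describe it. The median difference of WT replicate 5 from the other 9 mice was 0.33 over the 22 genes, against -0.0075 over all genes. The score of the list was -0.06, -0.07, -0.02, -0.04 and -0.04 in Tg(Dyrk1a) replicates 1 to 5, against -0.05, -0.07, 0.03, 0.00 and 0.32 in WT replicates 1 to 5, so that WT replicate 5 alone stood out here too.

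Among the thalamus genes that followed the score of the 8 genes most closely, the step in WT replicate 5 was seen in genes of different function. That score was set mainly by WT replicate 5, so genes picked by r with it tend to be high in that mouse. Rgs16, which encodes a brake on G-protein signalling, stood at 8.75 in WT replicate 5 and between 8.22 and 8.43 in the other 9 mice, and its r with the score was 0.96 over 10 mice. Ntng1, an axon guidance and synapse adhesion gene, stood at 9.93 in WT replicate 5 and between 9.45 and 9.68 in the other 9 mice (r = 0.94). Ramp3, a partner protein of peptide hormone receptors, stood at 8.09 in WT replicate 5 and between 6.98 and 7.40 in the other 9 mice (r = 0.91), which made WT replicate 5 1.88-fold higher than the mean of the other 9 mice.

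Not every thalamus gene followed. Gbx2, a homeodomain factor needed for the development of thalamic neurons, was 0.10 lower in WT replicate 5 than in the other 9 mice and had r = -0.26 with the score. Zic1, a zinc-finger transcription factor of the medial thalamus, was 2.13-fold above the mean of the other 9 mice in WT replicate 5, but WT replicate 3 at 8.87 was close to its 9.10. Lhx2 and Cplx1, which were on the list and also belong to hippocampal and cortical neurons, differed by 0.04 each.

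By genotype, none of the 22 thalamus genes passed limma at an adjusted p under 0.05. The log2 fold change was below 0 for 20 of them with a median of -0.08, and for 14 of them with a median of -0.02 without WT replicate 5. At an unadjusted limma p under 0.05, 4 were lower and none higher in Tg(Dyrk1a) mice, of which Ramp3 and Vipr2, the receptor gene for vasoactive intestinal peptide, remained without that mouse, beside the background shares given above. Vipr2 averaged 5.41 ± 0.07 in Tg(Dyrk1a) and 5.60 ± 0.12 in WT mice (SD, n = 5 each), a log2 fold change of -0.19 ± 0.06 (SE) at a limma adjusted p of 0.947.

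In the habenula genes listed, several of them dim, this step was not seen. All 16 further habenula genes listed were measured, WT replicate 5 was the highest mouse for 1 of them, and it was over 0.3 above the other 9 mice for none. The shares over all genes were 6.23% and 0.687%, and this list too was chosen with earlier results known. The median difference of the 16 genes in that mouse was -0.002. Several of these genes were dim in all 10 mice, such as Pou4f1 (at most 5.41), Chrnb3 (at most 5.38) and Chat (at most 5.54), against array medians of 6.57 to 6.66. Others were bright, such as Nr4a2 (at least 10.31) and Necab2 (at least 9.38). A step in a dim gene, or in a gene already bright in every mouse, could be missed. Whether a sample held habenula tissue was not tested. The score of the list was 0.05, -0.02, 0.05, -0.03 and -0.01 in Tg(Dyrk1a) replicates 1 to 5, against 0.04, -0.03, -0.07, 0.02 and -0.0019 in WT replicates 1 to 5, a range in which WT replicate 5 was near the middle.

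The 3 habenula genes nearest to the score of the 8 genes were Necab2, a calcium-binding protein gene (r = 0.49), Gng8, a G-protein gamma subunit gene (r = 0.35), and Htr5b, a serotonin receptor gene (r = 0.14). Necab2 stood at 9.74 in WT replicate 5 and between 9.38 and 9.74 in the other 9 mice, so that it was no higher there than in the highest of them. Chat, which encodes the enzyme that makes acetylcholine in the medial habenula and elsewhere, had the lowest r, -0.50, and was lowest in WT replicate 5. The defining gene Pou4f1, a transcription factor of habenular neurons, stood at 5.32 in WT replicate 5 and between 5.29 and 5.41 in the other 9 mice.

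By genotype, none of the 16 habenula genes passed limma at an adjusted p under 0.05, and their median log2 fold change was 0.0057, or -0.0064 without WT replicate 5. Of these, 2 reached an unadjusted limma p under 0.05, both higher in Tg(Dyrk1a) mice, as were 2.99% of all transcript clusters. The 2 habenula genes were Tac1, the precursor gene of substance P and the nearest relative of Tac2 on the list, with 7.68 ± 0.26 in Tg(Dyrk1a) and 7.40 ± 0.12 in WT mice (SD, n = 5 each), and Kctd12, an auxiliary subunit gene of GABA-B receptors, with 9.67 ± 0.06 in Tg(Dyrk1a) and 9.57 ± 0.06 in WT mice (SD, n = 5 each). Their limma adjusted p was 0.947 each.

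**Figure D4:**
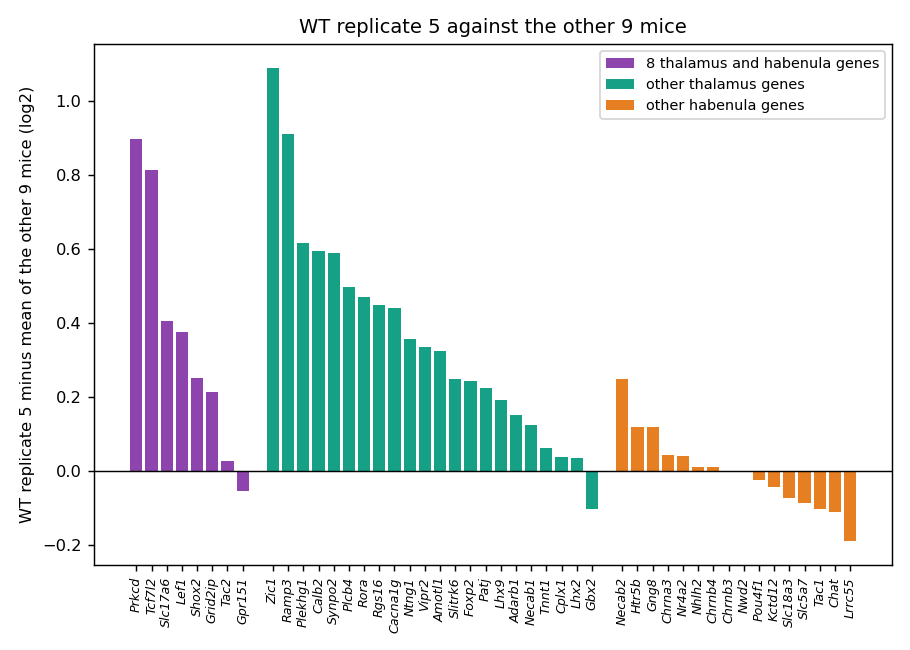
WT replicate 5 minus the mean of the other 9 mice, in log2 units (vertical axis, bars from 0), for the 8 genes (left), 22 other thalamus genes (middle) and 16 other habenula genes (right), each set in descending order. Most thalamus genes stand above 0, up to 1.09 for Zic1, while the habenula genes lie between -0.19 and 0.25.

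The search for genes whose pattern over the 10 mice was most like the score of the 8 genes covered 735 genes with an SD of at least 0.15. The 8 genes themselves and predicted genes were left out of it. The 10 with the highest r were Rgs16, Ramp3, Nipal2, Plcb4, Plekhg1, Synpo2, Rora, Trpv4, Vat1l and Cox8b, at r = 0.96 to 0.79, and WT replicate 5 was the highest mouse for each. The score was set mainly by WT replicate 5, so a high r with it selects genes that are high in that mouse. Of the 10, 6 were on the list of thalamus genes, and 4 were not. That list was chosen with earlier results of these data known, so the overlap only describes it. Nipal2, a gene of the NIPA-like magnesium transporter family, kept r = 0.86 without WT replicate 5, and Rgs16 kept 0.71, while Synpo2 went to -0.39 and Cox8b, a subunit gene of cytochrome c oxidase, to -0.35. Cox8b was the gene of the 10 with the tallest step, 2.24-fold above the mean of the other 9 mice. The 5 with the lowest r were Parvg, Nxph4, Tfcp2l1, Mrps26 and Olfr95, at r = -0.70 to -0.62.

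The scores of other cell types and regions were set beside this step. Choroid plexus, the epithelium that makes cerebrospinal fluid and lies next to the hippocampus and the thalamus, had 15 of 17 listed markers measured, with a mean level of 6.23 to 8.0 in Tg(Dyrk1a) and 6.36 to 7.97 in WT mice. Its score was -0.55, 1.11, -0.67, 0.78 and -0.44 in Tg(Dyrk1a) replicates 1 to 5, against -0.53, -0.38, -0.40, 0.01 and 1.08 in WT replicates 1 to 5. Its leading marker Ttr, the transthyretin gene, ranged from 7.97 to 13.19 in Tg(Dyrk1a) and from 9.49 to 13.24 in WT mice. Choroid plexus markers were thus high in Tg(Dyrk1a) replicates 2 and 4, in which the score of the 8 genes was -0.02 and -0.06, and in WT replicate 5, in which it was 0.33. Single genes differed in this. Prkcd, at 9.04 and 8.97 in Tg(Dyrk1a) replicates 2 and 4 and at 9.68 in WT replicate 5, had r = 0.74 with the choroid plexus score over 10 mice (permutation p = 0.00712, adjusted p = 0.182 over 128 relations, and rho = 0.77, permutation p = 0.0128). This relation did not pass, and its r was 0.78 with each genotype centred, 0.64 without WT replicate 5 and 0.62 without the farthest pair of mice.

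Without those 3 mice the log2 fold change was 0.20 for Tac2, -0.10 for Shox2, -0.10 for Grid2ip, -0.09 for Tcf7l2, -0.02 for Lef1 and -0.08 for Prkcd. With the choroid plexus score as a covariate it was 0.18 for Tac2, -0.13 for Shox2, -0.14 for Grid2ip, -0.25 for Tcf7l2, -0.12 for Lef1 and -0.16 for Prkcd, and no gene of the 8 passed limma in either fit. In the other 14 lists of cell types, regions and relatives, the score of WT replicate 5 lay between -0.17 for the dentate granule cells and 0.09 for the meninges.

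**Figure D5:**
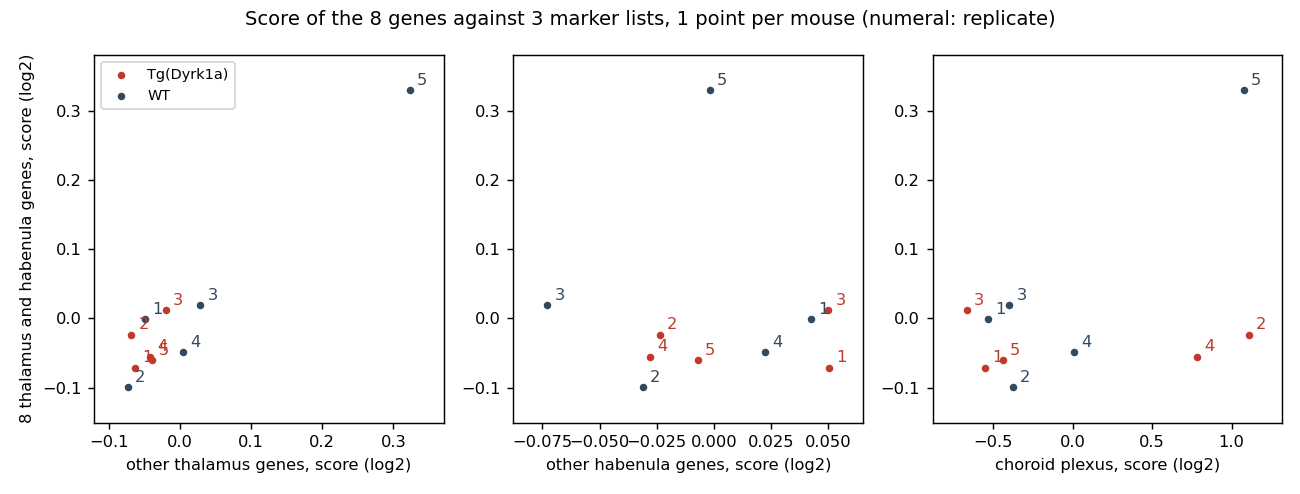
Score of the 8 genes (vertical axis, log2 units) against the scores of 22 other thalamus genes (left), 16 other habenula genes (middle) and 15 choroid plexus markers (right), with 1 point per mouse and its replicate number. WT replicate 5 lies at 0.33, with a thalamus score of 0.32 and a habenula score close to 0, while Tg(Dyrk1a) replicates 2 and 4 have choroid plexus scores of 1.11 and 0.78 without a raised score of the 8 genes.

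Each of the 8 genes was also compared with the scores of 16 lists across mice, 128 relations in all, and none passed after adjustment over the 128 relations. The highest r were with the other thalamus genes, 0.95 for Tcf7l2 (permutation p = 0.00862, adjusted p = 0.184, and rho = 0.61, permutation p = 0.0674) and 0.92 for Lef1 (permutation p = 0.00605, adjusted p = 0.182, and rho = 0.78, permutation p = 0.0105). They were 0.49 for Tcf7l2 and 0.56 for Lef1 without WT replicate 5, and 0.58 for Tcf7l2 and 0.43 for Lef1 without the farthest pair of mice. The smallest p was that of Tac2 with 16 markers of the meninges, the membranes around the brain, at r = 0.87 (permutation p = 0.0012, adjusted p = 0.0954) and rho = 0.83 (permutation p = 0.00479, adjusted p = 0.284), with r = 0.82 when each genotype was centred on its own mean and 0.70 without the farthest pair of mice. The meninges score was -0.11, 0.28, 0.15, 0.09 and 0.09 in Tg(Dyrk1a) replicates 1 to 5, against -0.15, -0.23, -0.24, 0.06 and 0.09 in WT replicates 1 to 5. Of the 16 meninges markers, 15 had a log2 fold change above 0, with a median of 0.23, where 48.3% of all genes were below 0. An unadjusted limma p under 0.05 was reached by 4 of them, all higher in Tg(Dyrk1a) mice, as were 2.99% of all transcript clusters. Tac2 also had r = 0.65 with 10 markers of GABA interneurons (permutation p = 0.0423, adjusted p = 0.341, and rho = 0.49, permutation p = 0.155). This r was 0.38 with each genotype centred and 0.13 without the farthest pair of mice. With the endothelium markers r was 0.66 (permutation p = 0.0341, adjusted p = 0.336, and rho = 0.50, permutation p = 0.144). It was 0.35 centred and 0.65 without the farthest pair of mice. Neither passed. Of the 10 interneuron markers, 9 had a log2 fold change above 0 and 1 below. The part of the meninges, interneurons or endothelium in the difference of Tac2 was not tested.

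Lef1 tended to be low where the 11 markers of dentate granule cells were high, at r = -0.85 over 10 mice (permutation p = 0.00149, adjusted p = 0.0954) and rho = -0.89 (permutation p = 0.00113, adjusted p = 0.145), with r = -0.80 when each genotype was centred on its own mean and -0.90 without the farthest pair of mice. It passed without WT replicate 5, at r = -0.92 (permutation p = 0.00045, adjusted p = 0.0288). Leaving out that mouse was chosen after seeing the data, and over all 10 mice none of the 128 relations passed. The dentate score was 0.05, 0.21, -0.09, 0.08 and 0.05 in Tg(Dyrk1a) replicates 1 to 5, against -0.07, 0.03, 0.02, -0.10 and -0.17 in WT replicates 1 to 5, so that WT replicate 5, the mouse highest for Lef1, was the lowest for the dentate markers. All 11 dentate markers had a log2 fold change above 0, with a median of 0.11, where 48.3% of all genes were below 0. An unadjusted limma p under 0.05 was reached by 3, all higher in Tg(Dyrk1a) mice, as were 2.99% of all transcript clusters.

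Prkcd and Slc17a6 had relations of opposite sign with 7 markers of the neighbouring cortex. For Prkcd it was r = -0.51 over 10 mice (permutation p = 0.134, adjusted p = 0.718, and rho = -0.71, permutation p = 0.0266). Without WT replicate 5, a choice made after seeing the data, it was the other relation that passed, at r = -0.89 (permutation p = 4e-05, adjusted p = 0.00512). Slc17a6 had r = 0.70 with the same markers over 10 mice (permutation p = 0.02, adjusted p = 0.269, and rho = 0.67, permutation p = 0.038), which did not pass, or 0.31 without the farthest pair of mice. The score of these cortex markers was -0.01, -0.23, 0.11, -0.03 and -0.03 in Tg(Dyrk1a) replicates 1 to 5, against 0.24, -0.05, -0.06, 0.07 and -0.0071 in WT replicates 1 to 5. It was highest in WT replicate 1, the mouse with the highest Slc17a6 and the lowest Prkcd, and it was close to 0 in WT replicate 5.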

How the data were processed

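Total RNA from the hippocampus of 5 Tg(Dyrk1a) and 5 WT mice was hybridised by the authors to Affymetrix whole-transcript mouse gene arrays, 1 per mouse. The values deposited are on a log2 scale and were made by the authors with RMA (robust multi-array averaging), a procedure of background subtraction, normalization between arrays and summary over the probes of each transcript cluster. RMA, limma and the build mm10 are named in the submitters' notes, with versions not given in the sources used here. RMA compresses fold changes of dim transcript clusters. Of 35556 rows, 23410 had a gene symbol and entered the tests.

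For the genotype comparison, lmFit and eBayes of limma 3.58.1 (R 4.3.3) were run with no covariate, and p-values were adjusted by Benjamini-Hochberg over these 23410 transcript clusters. Each gene also had a two-sided exact permutation test over the 252 assignments of mice to groups. Correlations between mice had 100000 permutations. FCROS, the rank method of the study, was rewritten from its description, trimming 25% of the ranks on either side, with calls in the outer 0.025 of each tail of the f-value, and details may differ from the published package. The replicate numbers were shared between the groups, but same-numbered mice did not deviate together (r = -0.29 to 0.28), so mice were not paired. Alternatives were other normalization and centring, filters, variance models, covariates and leaving out mice. The scripts were tested on simulated data. All 8 genes were named, with the 3 highest and the lowest r of the thalamus and habenula lists, and the 10 highest and 5 lowest r among other genes. Further genes of these lists (Zic1, Lhx2, Cplx1, Vipr2, Tac1, Kctd12, Pou4f1, Prkch, Slc17a8 and Tacr2) were named after their values were seen. The 8 genes and the lists were chosen with earlier results of these data known. Promoter windows came from RefSeq. The number of arrays limits the precision.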

Additional observations from a re-analysis of the deposited data

Results flagged for a closer look

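Within the WT group, 4 results had a mouse far from the other 4, and the mouse was WT replicate 5 each time. The gap to the nearest WT mouse, as a share of the whole range of the group, was 0.711 for Shox2, 0.832 for Tcf7l2, 0.724 for the score of the 8 genes and 0.743 for the score of the other thalamus genes, where Dixon's critical value for 5 mice is 0.71. Chance flags about 5% of groups, and over all annotated transcript clusters 6.37% were flagged in Tg(Dyrk1a) and 6.37% in WT mice. Shox2 is hardly past the critical value. The scores share genes with, or were drawn from the same mouse as, the single genes, so these 4 flags are not independent of one another.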

How the results depend on the processing

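No alternative with limma called any of the 8 genes (0 in each, with 0 to 0 over the fits that left out each mouse in turn), and FCROS, which has no error over mice, called 4, Tac2 as higher and Shox2, Grid2ip and Tcf7l2 as lower in Tg(Dyrk1a) mice, where it called 4.83% of all transcript clusters. The direction of Tac2, Shox2, Grid2ip, Tcf7l2, Lef1 and Gpr151 held in every limma alternative run, although that of Lef1 shrank to -0.02 without the 3 mice rich in choroid plexus markers, with the limma adjusted p of Tac2 between 0.595 and 1.0. The log2 fold change of Prkcd turned to 0.056 without WT replicate 5, and leaving out each mouse in turn gave -0.2404 to 0.056. That of Slc17a6 turned to 0.0674 with array weights, to 0.0102 without WT replicate 1 and to 0.0943 without the 3 mice rich in choroid plexus markers, and leaving out each mouse in turn gave -0.2164 to 0.0102. Removing the dimmest 30% of transcript clusters left no value for Shox2, Grid2ip and Gpr151. With the replicate number as a block, the log2 fold change of Tac2 was 0.18 at a limma adjusted p of 0.946, no gene of the 8 was called, and 1 transcript cluster passed in all in place of 2. Array weights gave 5 in all.

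The number of pairs that passed was 1, and it stayed 1 with values centred on the genotype means, where the median r was 0.51 in place of 0.24, and it moved to 0 with Spearman's rho, to 4 with quantile normalization and to 0 without the 3 mice rich in choroid plexus markers. Leaving out each mouse in turn gave 0 to 3 pairs, with 0 without WT replicate 5 or Tg(Dyrk1a) replicate 4, 2 without Tg(Dyrk1a) replicate 1 and 3 without Tg(Dyrk1a) replicate 2. The cause was not tested. The counts of the thalamus and habenula lists without WT replicate 5, and the relations with list scores without it, were chosen after seeing the data. The 5 mice a group limit the precision to the 95% intervals given above.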
